A study of Arabidopsis thaliana with 6 samples.

Results

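The 31 genes described here are the named loci of the Arabidopsis thaliana circadian clock and its closest outputs. They were taken by locus identifier from the 28775 loci of the deposited count table, and all 31 were found in it. Read counts came from the shoot apex of flowering plants, labelled inflorescence meristem, in 3 libraries treated with dexamethasone to express AP2m3 and in 3 mock-treated libraries. AP2m3 is a form of the floral regulator APETALA2 (AP2) that microRNA miR172 cannot silence, and dexamethasone is a synthetic glucocorticoid used to switch on an engineered plant gene. Every plant was kept at 21 °C with 16 h light and 8 h dark, was treated 2 weeks after bolting, and gave up its apex 6 to 8 h later, after the flower primordia that could be seen had been taken off. The sources used here give neither the clock time of treatment or harvest, nor the transgene's promoter and line, nor the number of plants in a library, so p-values measure the spread between these libraries, which may be technical. The dexamethasone libraries are called Dx4, Dx5 and Dx6 and the mock libraries CT1, CT2 and CT3, after the column heads.

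The plant clock is a loop of repressors and activators that follow each other through the day. The MYB factors CCA1 and LHY are most abundant at dawn and repress evening genes through a promoter motif called the evening element. The pseudo-response regulators PRR9, PRR7, PRR5, PRR3 and TOC1 act in turn from morning to evening and repress CCA1 and LHY. REVEILLE factors such as RVE8, with their LNK coactivators, activate evening genes, and the evening complex of ELF3, ELF4 and LUX closes the loop in the night. Of the 31 genes, 16 have a textbook peak at dawn or in the morning, 12 between midday and evening, and 3 (ZTL, LKP2 and CHE) were assigned to no time.

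A promoter motif of the loop, the evening element, is shown here for the midday to evening genes whose promoter holds it. The 500 bases before each gene's start, in RefSeq's annotation of assembly TAIR10.1, were searched on both strands for the evening element AAAATATCT. It was found in 7 of 12 midday to evening genes (58.3%), in 1 of 16 dawn or morning genes (6.25%) and in 4.47% of the promoters of 26709 protein-coding loci of the table. The lines below give the matches in capitals with 15 bases on each side where the promoter extends that far, read 5′ to 3′ on the gene's own strand. The build behind the counts is not given, so the coordinates refer to TAIR10.1 alone.
TOC1 evening element, chr5:24674797-24674835, plus strand: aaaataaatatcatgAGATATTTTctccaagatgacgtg
PRR5 evening element, farther from the gene, chr5:8358815-8358853, minus strand: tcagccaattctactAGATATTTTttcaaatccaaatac
PRR5 evening element, nearer to the gene, chr5:8358710-8358748, minus strand: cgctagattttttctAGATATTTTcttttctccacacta
LUX evening element, chr3:17182974-17183012, plus strand: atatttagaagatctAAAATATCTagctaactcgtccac
BOA evening element, chr5:24003830-24003868, plus strand: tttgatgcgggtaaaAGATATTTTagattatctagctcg
FKF1 evening element, farther from the gene, chr1:25508251-25508289, plus strand: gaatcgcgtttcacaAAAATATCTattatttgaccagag
FKF1 evening element, nearer to the gene, chr1:25508438-25508476, plus strand: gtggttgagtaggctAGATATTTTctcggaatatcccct
GRP7 evening elements, chr2:9266565-9266648, minus strand: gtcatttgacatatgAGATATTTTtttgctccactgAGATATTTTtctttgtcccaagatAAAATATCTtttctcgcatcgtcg
GRP8 evening element, chr4:18275217-18275243, minus strand: aagatattcttacaaAGATATTTTttg

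All of these stretches lie upstream of the annotated gene and in no annotated exon of another gene. GRP7 held 3 copies within 76 bases of its start, PRR5 and FKF1 held 2 each, and the 1 dawn or morning carrier was RVE7, with 2 copies that are not printed. The G-box CACGTG, a motif bound by light-signalling factors, was counted in the same way. It was present in 7 of 16 dawn or morning genes (43.8%), in 3 of 12 midday to evening genes (25%) and in 9.46% of all promoters, and its copies in the dawn or morning repressors CCA1, LHY and PRR9 and in PRR7 are shown with the motif in capitals. PRR7 is 1 of the 3 midday to evening carriers, with LUX and BOA.
CCA1 G-box, chr2:19245383-19245418, plus strand: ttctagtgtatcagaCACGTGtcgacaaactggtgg
LHY G-box, chr1:37931-37966, minus strand: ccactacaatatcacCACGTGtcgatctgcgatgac
PRR9 G-box, farther from the gene, chr2:19232348-19232383, plus strand: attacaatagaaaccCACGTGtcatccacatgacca
PRR9 G-box, nearer to the gene, chr2:19232420-19232455, plus strand: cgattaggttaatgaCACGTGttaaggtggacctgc
PRR7 G-box, chr5:642211-642246, minus strand: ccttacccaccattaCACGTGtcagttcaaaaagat

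The CCA1-binding site AAAAATCT matched in 6 of the 31 promoters (19.4%, against 12.6% of all), and the LUX-type sites GATACG and GATTCG in 11 of 31 (35.5%, against 22.6%). Taken with flanking bases, the LUX-type matches of RVE4, LNK1 and LKP2 overlapped annotated exons of other genes. So did the CCA1-binding match of LKP2. Each motif was counted separately, and no match in the 31 promoters overlapped another. A match is a description of letters, and the binding of any factor was not measured. None of these letters was found in the 500-base windows of GI, PRR3, RVE8, LNK4, ZTL, CDF1, CDF3 and CHE, which says nothing of sequence farther away.

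**Figure D1:**
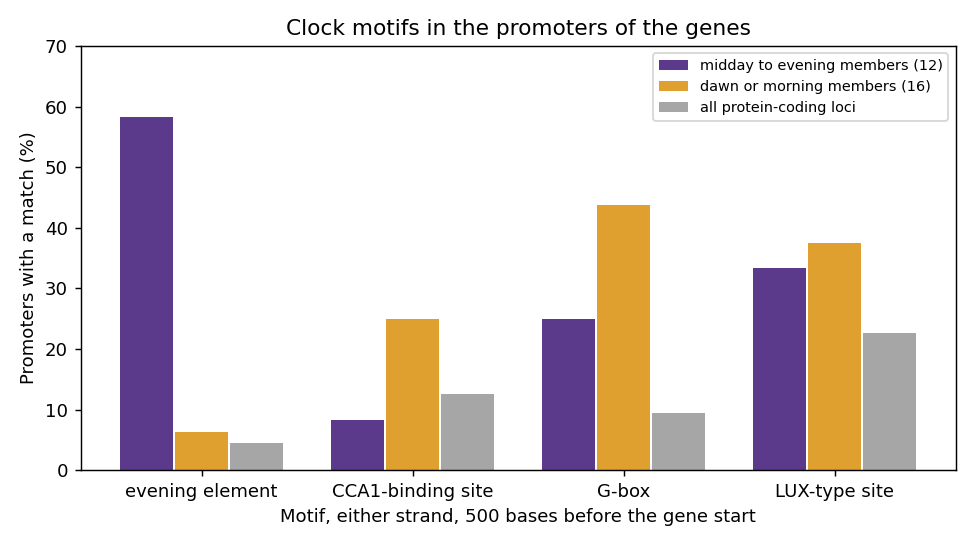
Share of promoters (%) with at least 1 match of each motif in the 500 bases before the gene start, for midday to evening genes (n = 12), dawn or morning genes (n = 16) and all 26709 protein-coding loci. The evening element bar stands at 58.3% in the midday to evening genes and at 6.25% in the dawn or morning genes, against 4.47% of all promoters.

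Total counts were 1833795 to 2109788 in the dexamethasone libraries and 1633571 to 2196781 in the mock libraries. A level of 3 counts, the limit that a count of 0 allows, equalled 1.38 to 1.88 CPM (library-scaled counts) per library, counting error only. The induction was clear in the counts of AP2 (AT4G36920), with 1100, 1187 and 1009 CPM under dexamethasone and 55.7, 60.5 and 78.1 CPM in the mock libraries, with transgene and endogenous reads counted together. Dexamethasone libraries were alike (Pearson r of log2(CPM + 1) across genes 0.974 to 0.975), and mock libraries less so (0.942 to 0.964). Of the meristem markers, STM averaged 72.6 ± 8.74 CPM with dexamethasone and 65.4 ± 3.57 CPM in mock (SD, n = 3 each), whereas CLV3 was listed at 0 counts in all 6 libraries. The 5 meristem markers summed to 258 to 276 CPM with dexamethasone and 196 to 227 CPM in mock. Of these CLV1 was higher, at means of 93.0 CPM with dexamethasone and 56.2 CPM in mock. STM and KNAT1 did not pass the test (edgeR adjusted p = 0.524 and 0.2). WUS had too few counts to be tested, at means of 4.35 CPM with dexamethasone and 4.86 CPM in mock. The 5 floral primordium markers summed to 567 to 594 CPM with dexamethasone and 659 to 686 CPM in mock, and LFY and AP1 were lower. AP3 went the other way, at 185 to 197 CPM with dexamethasone and 144 to 166 CPM in mock (edgeR adjusted p = 0.0911). PI and AG did not pass the test. The 4 markers of green tissue summed to 3791 to 4034 CPM with dexamethasone and 6653 to 8284 CPM in mock, and 3 of them, RBCS1A, LHCB1.3 and GLK2, were lower while GLK1 was higher. The 3 phloem markers summed to 46.0 to 62.9 CPM with dexamethasone and 69.5 to 92.5 CPM in mock, and SUC2 and SEOR1 were lower. APL overlapped, at means of 8.35 CPM with dexamethasone and 6.74 CPM in mock. The 3 tapetum markers overlapped in sum, at 146 to 215 CPM with dexamethasone and 75.2 to 207 CPM in mock. In whole apices, fewer cells of a type and less RNA per cell cannot be told apart, and the part of such tissue in the clock results was not tested.

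Across the clock genes the common direction was downward. The 31 genes were chosen with earlier results of these data known, so the shares below describe them and are no independent test. Of the 31 genes, 26 passed the filter on low counts (10 reads scaled to library size), and 11 of these were lower with dexamethasone while 1, ELF4, was higher. In the same test (edgeR quasi-likelihood, Benjamini-Hochberg adjusted p under 0.05 over 15857 genes) 8.02% of all genes were lower and 5.86% higher. The log2 fold change, dexamethasone over mock, was negative for 23 of the 26, with a median of -0.59 against 0.00 over all genes tested. All dexamethasone libraries lay below all mock libraries in 15 of the 26, where 15.9% of all genes did so, and all lay above in ELF4, where 15.1% of all genes did so. Of the 31, the 5 under the filter were CCA1, LHY, PRR9, RVE8 and CDF1, all of them dawn or morning genes. RVE1 and LNK3 reached the filter's level of 5.04 CPM in the mock libraries alone and entered the test through them. The number of lower genes among the 31 depended on single libraries, at 4 without Dx5, 3 without Dx6, 5 without CT2 and 16 without CT3. In those runs 4.12%, 4.3%, 4.78% and 12.3% of all genes tested were lower. PRR7, RVE4 and LNK1 were the 3 that kept their calls without each library in turn and in every other alternative run. ELF4 lost its call without Dx4, Dx5, Dx6 or CT1.

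**Figure D2:**
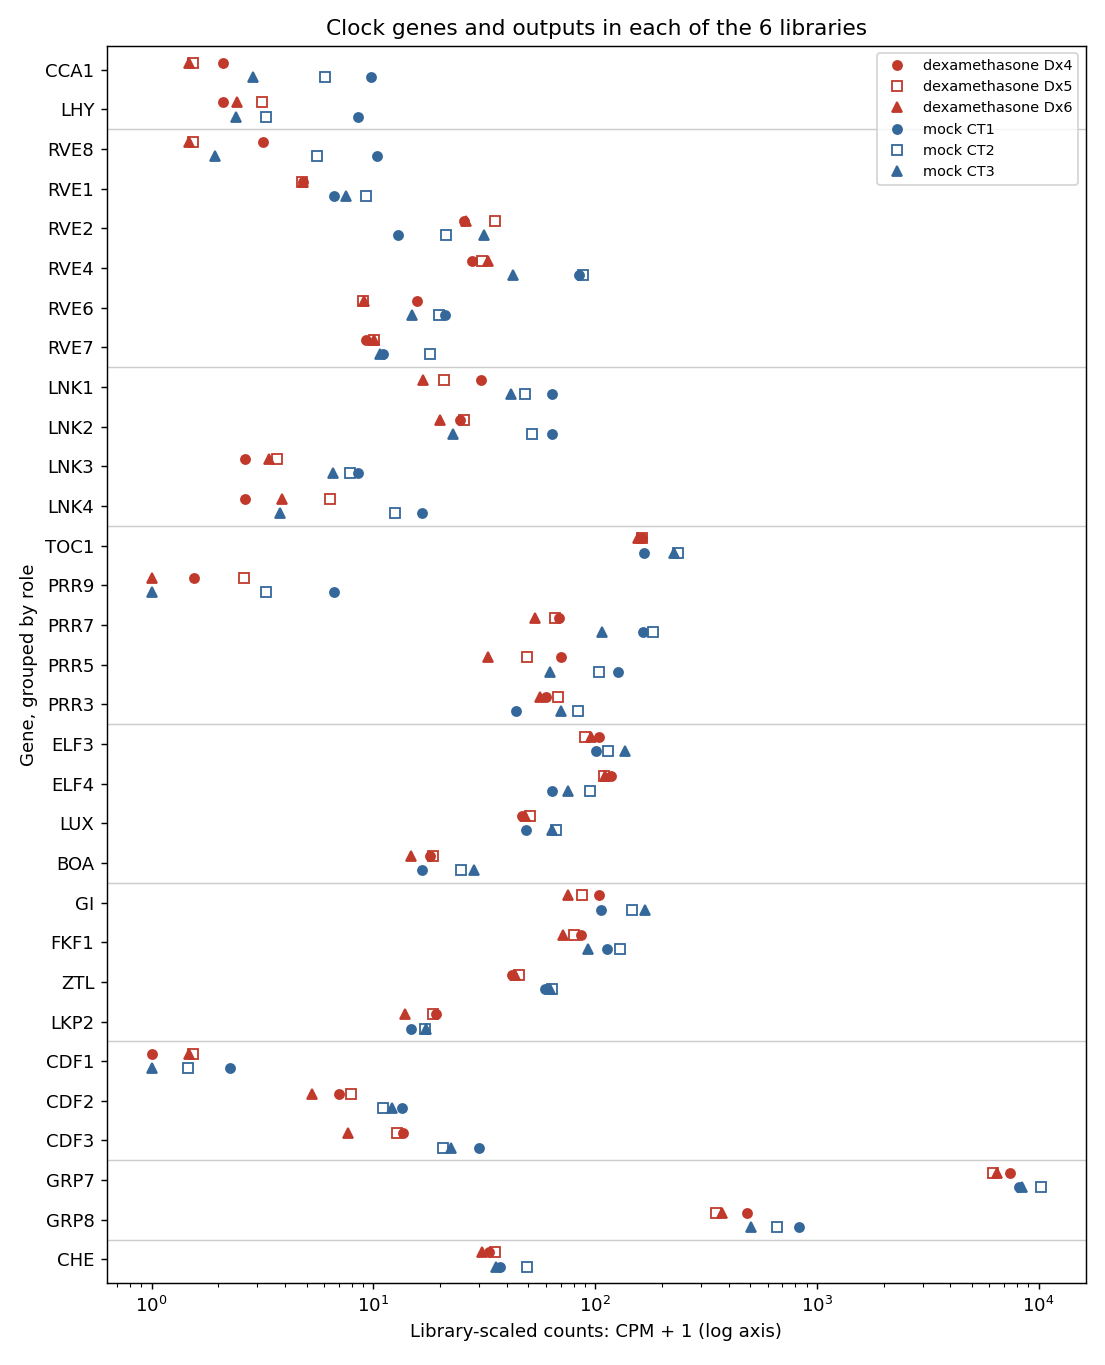
Library-scaled counts (CPM + 1, log axis) of all 31 genes in each library, grouped by role, with dexamethasone libraries in red above mock libraries in blue on each line. The red and blue points are apart for PRR7, RVE4, LNK1 and ZTL, and the mock points of CCA1, RVE8 and LNK4 are spread, with CT1 highest and CT3 lowest.

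The dawn repressors CCA1 and LHY were near the limit of detection. CCA1 (AT2G46830) had 2, 1 and 1 counts in Dx4, Dx5 and Dx6, against 14, 11 and 4 counts in CT1, CT2 and CT3. All 3 dexamethasone libraries were below all mock libraries, but the mock libraries themselves differed 4.71-fold in CPM. Summed on library sizes, dexamethasone over mock was 0.141, with a 95% exact binomial interval of 0.0361 to 0.402 for counting error alone. LHY (AT1G01060) had 2, 4 and 3 counts with dexamethasone and 12, 5 and 3 counts in mock, so the groups overlapped and CT1 held most of the mock reads. Its ratio of 0.461 had an interval of 0.185 to 1.06. With no filter beyond 1 count, the edgeR adjusted p was 0.00172 for CCA1 and 0.313 for LHY.

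Among the REVEILLE factors, MYB relatives of CCA1, RVE4 was lower. RVE4 (AT5G02840), which with RVE8 and RVE6 activates evening genes, measured 26.9, 29.97 and 31.9 CPM in the libraries Dx4, Dx5 and Dx6, against 83.9, 87.1 and 41.9 CPM in CT1, CT2 and CT3. CT3 was the lowest mock library by a wide margin, yet still above every dexamethasone library. The log2 fold change was -1.25 ± 0.25 (SE; edgeR adjusted p = 0.00519), and it ranged from -1.53 to -1.05 when each library was left out. RVE8 (AT3G09600) was not tested, with 4, 1 and 1 counts with dexamethasone and 15, 10 and 2 counts in mock, a ratio of 0.227 with an interval of 0.0768 to 0.562. CT3 fell among the dexamethasone libraries here. RVE6 (AT5G52660) averaged 10.3 ± 3.89 CPM with dexamethasone and 17.6 ± 3.22 CPM in mock (edgeR adjusted p = 0.0705), and passed the threshold without Dx4 (0.0308) or without CT3 (0.0126).

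The other 3 REVEILLE genes did not pass the test. RVE1 (AT5G17300), which promotes auxin synthesis by day, had 3.84, 3.75 and 3.81 CPM with dexamethasone and 5.64, 8.25 and 6.51 CPM in mock, with no overlap but an edgeR adjusted p of 0.154. RVE2 (AT5G37260), also named CIR1, went against the rest, at 24.7, 34.2 and 25.2 CPM with dexamethasone and 11.9, 20.2 and 30.7 CPM in mock. Its groups overlapped because CT3 was high, and the log2 fold change was 0.38 ± 0.26 (edgeR adjusted p = 0.378). Without CT3 it was 0.75 (edgeR adjusted p = 0.0149), in a run where 11.3% of all genes tested were higher. That run removes the library that overlapped, so it is no support for a change. RVE7 (AT1G18330) averaged 8.79 ± 0.493 CPM with dexamethasone and 12.2 ± 4.08 CPM in mock (edgeR adjusted p = 0.305). Its counts are uncertain, since 54.7% of the 50-base words of its exons also occur in exons of other genes.

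All 4 LNK genes, which encode coactivators that bind REVEILLE proteins, had negative fold changes, and 2 passed the test. LNK1 (AT5G64170) had 29.6, 19.8 and 15.7 CPM in Dx4, Dx5 and Dx6, against 63.3, 47.2 and 40.9 CPM in CT1, CT2 and CT3. The groups were apart, and LNK1 was 2.31-fold lower with dexamethasone (log2 -1.21 ± 0.22; edgeR adjusted p = 0.000907). LNK3 (AT3G12320) entered the test through the mock libraries alone. It had 3, 5 and 5 counts with dexamethasone and 12, 15 and 12 counts in mock, a log2 fold change of -1.53 ± 0.43 with edgeR adjusted p = 0.022. That call was lost without any library except CT3, with adjusted p up to 0.104 without Dx4, and with the Wald test of DESeq2 (0.104).

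LNK2 and LNK4 divided the mock group. LNK2 (AT3G54500) had 23.6, 24.6 and 19.1 CPM with dexamethasone and 63.3, 50.9 and 21.9 CPM in mock, so that CT3 lay among the dexamethasone libraries. LNK4 (AT5G06980) had 1.64, 5.35 and 2.86 CPM with dexamethasone and 15.7, 11.5 and 2.79 CPM in mock, again with CT3 among the dexamethasone libraries. Their edgeR adjusted p-values were 0.117 and 0.0915 with all libraries. The Wald test of DESeq2 called LNK2 lower but not LNK4, and limma-voom called neither (adjusted p = 0.275 and 0.281). Without CT3 the edgeR adjusted p-values were 9.72e-08 and 0.000231, at log2 fold changes of -1.34 and -2.00. That run removes the mock library that overlapped, so its small p-values are no support for a change. In it 12.3% of all genes tested were lower and 11.3% higher, against 8.02% and 5.86% with all libraries.

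All 4 pseudo-response regulators tested had negative fold changes, and 1, PRR7, passed the test. PRR7 (AT5G02810) had 67.4, 64.8 and 52.4 CPM in Dx4, Dx5 and Dx6, against 163, 181 and 107 CPM in CT1, CT2 and CT3. Every mock library exceeded every dexamethasone library. With dexamethasone PRR7 was 2.44-fold lower (log2 -1.29 ± 0.18, SE; edgeR adjusted p = 0.000116), and the log2 value ranged from -1.49 to -1.13 as each library was left out. PRR7 and RVE4 lie near each other on chromosome 5, with 4 annotated genes between them, and PRR9 and CCA1 lie near each other on chromosome 2, with 3 between them.

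PRR9 (AT2G46790), the first of the series in the day, had 1, 3 and 0 counts with dexamethasone and 9, 5 and 0 counts in mock, and 31.2% of its exon words are shared with other genes. Its ratio of dexamethasone to mock was 0.292, with an interval of 0.0701 to 0.931. PRR5 (AT5G24470), which acts in the afternoon, had 69.0, 48.2 and 31.9 CPM with dexamethasone and 125, 103 and 61.4 CPM in mock, with CT3 inside the dexamethasone range. Its log2 fold change was -0.95 ± 0.35 (edgeR adjusted p = 0.138), and it passed without Dx4 (-1.27, adjusted p = 0.0242) or without CT3 (-1.20, adjusted p = 0.0295). PRR3 (AT5G60100), which protects TOC1 protein from breakdown, overlapped between groups at 59.2, 66.9 and 55.7 CPM with dexamethasone and 43.2, 83.0 and 69.3 CPM in mock.

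TOC1 (AT5G61380), the evening member of the family, had 162, 162 and 156 CPM in Dx4, Dx5 and Dx6, against 166, 236 and 226 CPM in CT1, CT2 and CT3. CT1 was within a few units of the dexamethasone libraries, and the other mock libraries were higher. At -0.40 ± 0.14 its log2 fold change did not pass (edgeR adjusted p = 0.0596). It passed without CT1 (adjusted p = 0.00431) or without CT3 (0.0204).

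In the evening complex, ELF4 rose while its partners did not pass the test. ELF4 (AT2G40080), a small protein of the complex, had 117, 109 and 110 CPM in Dx4, Dx5 and Dx6, against 63.3, 93.5 and 74.4 CPM in CT1, CT2 and CT3. No mock library reached the lowest dexamethasone library. ELF4 was 1.44-fold higher (log2 fold change 0.53 ± 0.14, SE; edgeR adjusted p = 0.0182), with adjusted p up to 0.0967 without Dx4. ELF3 (AT2G25930), the scaffold of the complex, averaged 96.1 ± 7.14 CPM with dexamethasone and 117 ± 17.96 CPM in mock, at a log2 fold change of -0.28 ± 0.14 (adjusted p = 0.194). LUX (AT3G46640), its DNA-binding subunit, averaged 47.7 ± 1.92 CPM with dexamethasone and 58.6 ± 9.66 CPM in mock, at -0.31 ± 0.15 (adjusted p = 0.187). BOA (AT5G59570), a close relative of LUX, averaged 16.2 ± 2.05 CPM with dexamethasone and 22.3 ± 6.04 CPM in mock, at -0.50 ± 0.23 (adjusted p = 0.169, and 0.0452 without CT1), and 43.7% of its exon words are shared with an overlapping gene. For ELF3, LUX and BOA the mock library CT1 lay inside the dexamethasone range while CT2 and CT3 were above it.

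**Figure D3:**
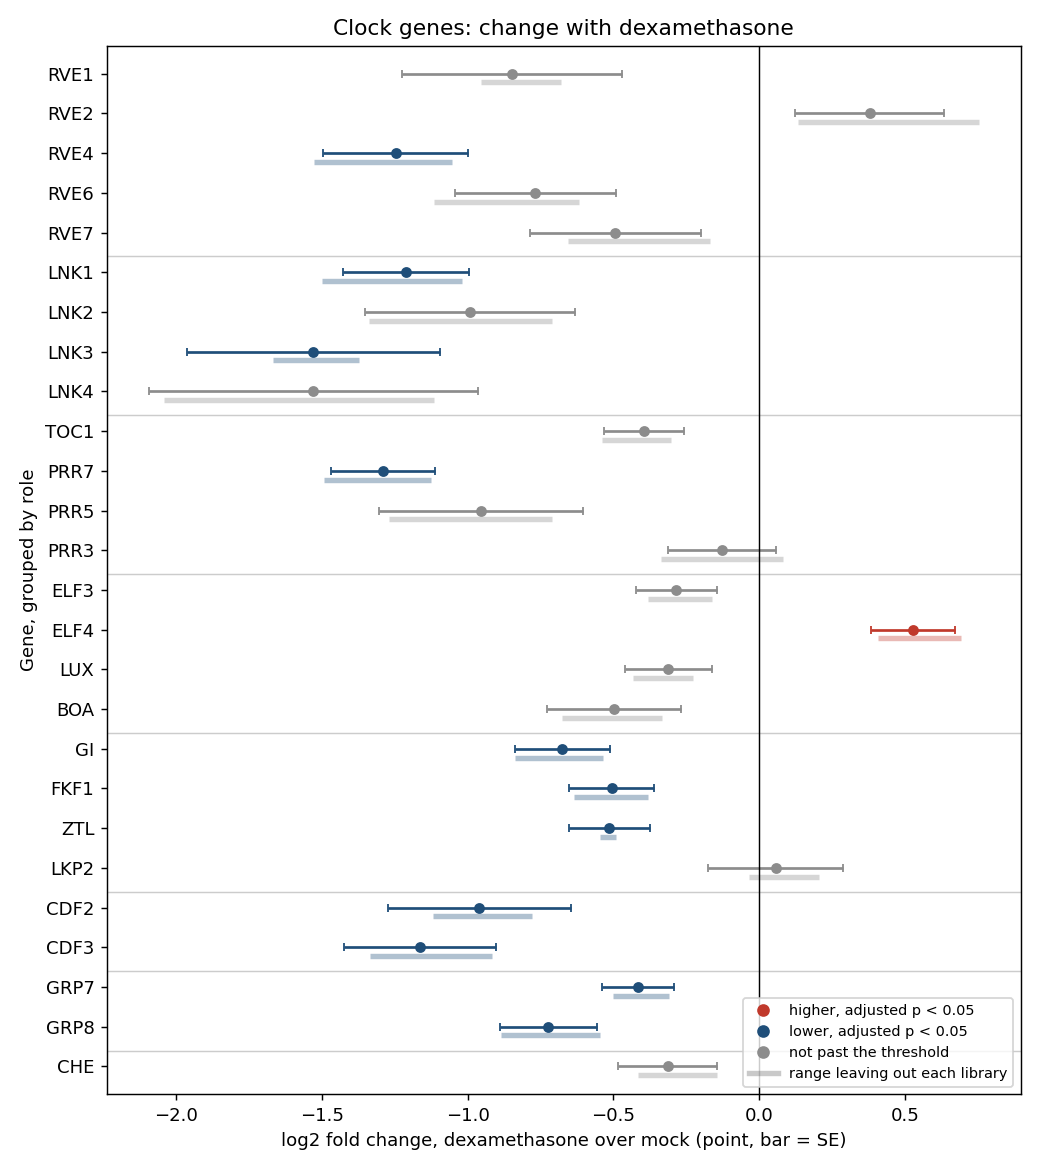
Log2 fold change of the 26 tested genes, dexamethasone over mock, with SE as error bars and, under each point, a pale bar for the range when each library is left out in turn. Genes past an adjusted p of 0.05 are dark blue where lower and red where higher; PRR7 lies at -1.29, RVE4 at -1.25, LNK1 at -1.21 and ELF4 at 0.53.

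GI and the light-sensing F-box proteins that mark clock and flowering proteins for breakdown were lower, except for LKP2. GI (AT1G22770), a large afternoon protein that stabilises ZTL and works with FKF1 in day-length sensing, had 103, 86.7 and 74.8 CPM in Dx4, Dx5 and Dx6, against 106, 146 and 167 CPM in CT1, CT2 and CT3. The highest dexamethasone library and the lowest mock library nearly met. GI changed by -0.67 ± 0.16 on the log2 scale (SE; edgeR adjusted p = 0.00846), and the call was lost without Dx5, Dx6 or CT2, with adjusted p up to 0.0859.

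FKF1 (AT1G68050), the afternoon partner of GI, had 85.5, 79.2 and 70.5 CPM with dexamethasone and 113, 129 and 92.1 CPM in mock. ZTL (AT5G57360), which targets TOC1 and PRR5 proteins, had 41.1, 44.4 and 42.4 CPM with dexamethasone and 58.2, 62.8 and 61.4 CPM in mock. Neither gene overlapped between groups, and ZTL had one of the smallest spreads within each group. Their log2 fold changes were -0.51 ± 0.15 and -0.51 ± 0.14, with edgeR adjusted p of 0.0235 and 0.0164. Both calls were lost without any dexamethasone library or without CT2, with adjusted p up to 0.164 for FKF1 (without CT2) and 0.0806 for ZTL (without Dx4), and with the Wald test of DESeq2 (0.0573 and 0.0904). LKP2 (AT2G18915), the third F-box protein, averaged 16.2 ± 2.90 CPM with dexamethasone and 15.4 ± 1.38 CPM in mock, at a log2 fold change of 0.06 ± 0.23.

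The CDF genes encode DOF-type repressors of CONSTANS, the day-length regulator, that FKF1 and GI remove in the afternoon. CDF3 (AT3G47500) had 12.6, 11.8 and 6.67 CPM in Dx4, Dx5 and Dx6, against 28.8, 19.7 and 21.4 CPM in CT1, CT2 and CT3. The groups were apart, and the log2 fold change was -1.16 ± 0.26 (SE; edgeR adjusted p = 0.00453, and 0.0506 without Dx6). CDF2 (AT5G39660) had 6.03, 6.96 and 4.29 CPM with dexamethasone and 12.5, 10.09 and 11.2 CPM in mock, a log2 fold change of -0.96 ± 0.31. Its adjusted p of 0.0461 stood close to the threshold and rose to as much as 0.214 (without Dx6), with the call kept only without CT3 among the libraries left out, and lost with DESeq2, limma-voom and total-count scaling. CDF1 (AT5G62430) had 2 counts over the dexamethasone libraries and 3 over the mock libraries, too few to compare.

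The outputs GRP7 and GRP8 encode glycine-rich RNA-binding proteins that cycle with an evening peak and regulate their own and each other's transcripts by splicing. GRP7 (AT2G21660) had the highest count of all loci in 5 of the 6 libraries and the second highest in Dx5, at 0.739, 0.623 and 0.648% of counts in Dx4, Dx5 and Dx6, against 0.800, 1.03 and 0.825% in CT1, CT2 and CT3. The 95% Wilson interval was 0.727 to 0.751% in Dx4 and 0.787 to 0.814% in CT1, counting error only. On the CPM scale this was 7426, 6207 and 6516 with dexamethasone and 8187, 10259 and 8430 in mock, with no overlap. The log2 fold change was -0.42 ± 0.12 (edgeR adjusted p = 0.0284), a call lost without any dexamethasone library or without CT2, with adjusted p up to 0.199 without Dx5.

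GRP8 (AT4G39260) had 485, 348 and 374 CPM in Dx4, Dx5 and Dx6, against 826, 664 and 506 CPM in CT1, CT2 and CT3. The groups did not overlap, although Dx4 and CT3 were close. GRP8 changed by -0.72 ± 0.17 on the log2 scale (edgeR adjusted p = 0.00848), and the call was lost without Dx5 (0.0603) or Dx6. GRP7 counts were 15.3, 17.8 and 17.4 times those of GRP8 in Dx4, Dx5 and Dx6, against 9.91, 15.5 and 16.7 times in CT1, CT2 and CT3, so the ratio of the pair was lowest in CT1. These ratios are of raw counts and not per length. CHE (AT5G08330), a TCP factor that binds the CCA1 promoter, had a mean of 32.2 ± 2.12 CPM with dexamethasone and 39.8 ± 7.27 CPM in mock, without overlap but with adjusted p = 0.247.

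Per kilobase of exon, GRP7 stood first at 5765 CPM per kb with dexamethasone and 7690 CPM per kb in mock, followed by GRP8 at 364 CPM per kb with dexamethasone and 602 in mock, and ELF4 at 181 with dexamethasone and 124 in mock. TOC1 came next, at 56.9 CPM per kb with dexamethasone and 74.6 in mock. PRR5, FKF1, PRR7 and ELF3 lay between 42.4 and 57.5 CPM per kb in mock, where neighbours in the order differed by less than the SD of the higher one. At the other end CCA1, LHY, PRR9, RVE8 and CDF1 had 0.236 to 0.455 CPM per kb with dexamethasone and 0.400 to 2.12 CPM per kb in mock. By group mean, PRR7 ranked 12 of 31 with dexamethasone and 7 in mock, and RVE2 ranked 8 with dexamethasone and 14 in mock.

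The mock libraries differed among themselves over all genes, with a chi-square per gene of 5.50 and a Pearson r of 0.942 between CT1 and CT3. That was the least alike mock pair, and chi-square was 2.20 between CT1 and CT2 and 4.13 between CT2 and CT3. The most alike pair between groups, Dx4 and CT3, gave 5.56 and 0.945. The other pairs between groups gave 6.23 to 8.13 and 0.914 to 0.943. The tapetum markers also set CT1 apart, at a sum of 75.2 CPM, against 207 CPM in CT2 and 198 CPM in CT3, and the part of this in the clock genes was not tested. Of the 11 dawn or morning genes tested, 7 (63.6%) were highest in CT1 within the mock group and 7 were lowest in CT3, where 35.8% of all genes tested were highest in CT1 and 38.1% lowest in CT3. The 5 dawn or morning genes under the filter were also highest in CT1 and lowest in CT3, some of them on very few counts. CCA1 had 8.77 CPM in CT1, 5.04 in CT2 and 1.86 in CT3, and RVE8 had 9.39, 4.58 and 0.930 CPM in that order. PRR5, which is assigned to the afternoon, followed the same order, as did GRP8. Of the 12 midday to evening genes, 8 were lowest in CT1, where 35.1% of all genes were, among them TOC1, PRR3, GI, ELF3, ELF4, LUX and BOA.

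The midday to evening genes were closer together in the dexamethasone group than in the mock group. The median SD of log2(CPM + 1) over the 12 midday to evening genes was 0.14 among dexamethasone libraries and 0.31 among mock libraries, where over all genes tested it was 0.15 among dexamethasone libraries and 0.22 among mock libraries. For 11 of these 12 genes the mock SD was the larger, as for 66.6% of all genes. For the 11 dawn or morning genes tested the medians were 0.26 with dexamethasone and 0.31 in mock, and 6 of the 11 had the larger SD in mock. LNK1, RVE6, CDF2, CDF3 and LNK3 were the 5 whose dexamethasone libraries varied more. GI had a log2 fold change of -0.84 without CT1 and -0.54 without CT3.

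**Figure D4:**
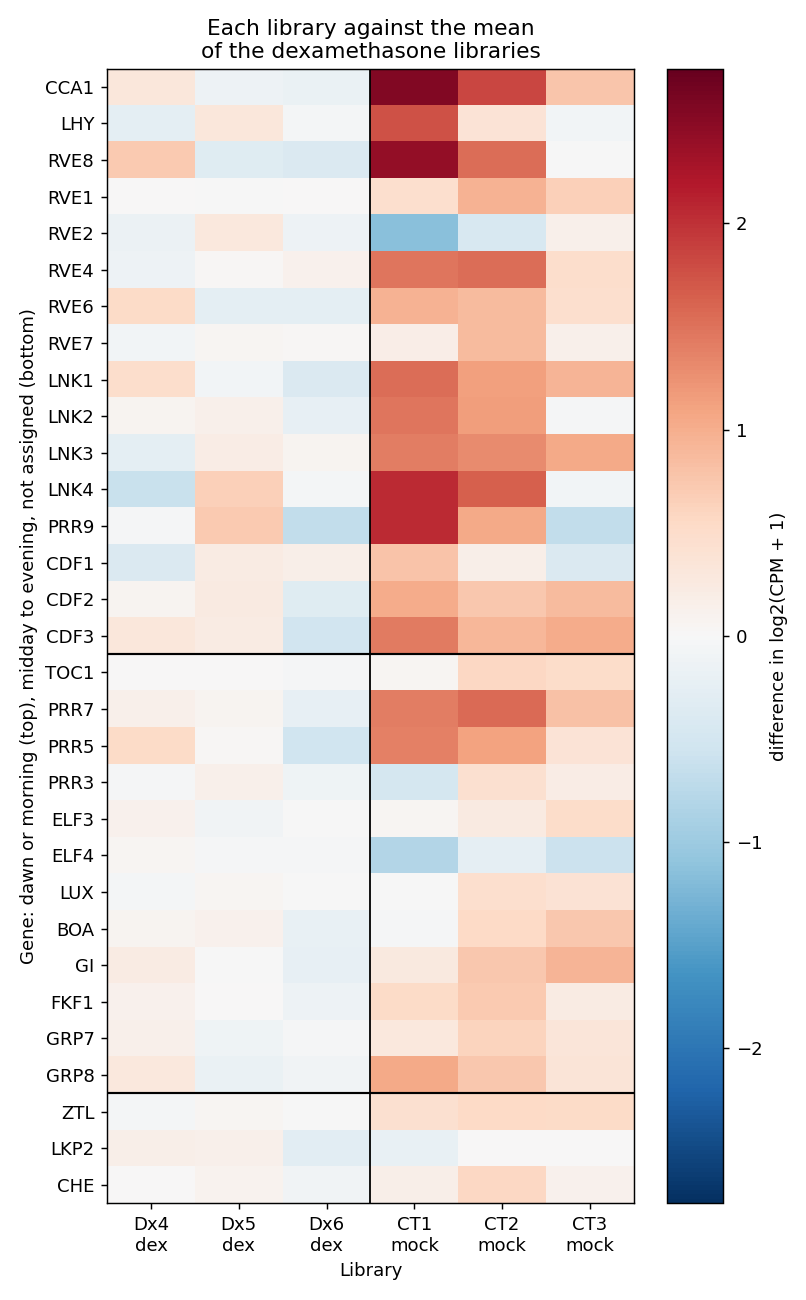
Difference in log2(CPM + 1) of each library from the mean of the 3 dexamethasone libraries, for dawn or morning genes (top), midday to evening genes (middle) and unassigned genes (bottom). Among mock libraries, 7 of the 11 dawn or morning genes tested are highest in CT1 and 7 are lowest in CT3, where LNK2, LNK4 and RVE8 are near the dexamethasone level, while ELF4 and RVE2 are blue in CT1.

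Genes around the clock that are not among the 31 were counted in 3 lists. Of 24 other clock regulators, 20 were tested, and none passed with all libraries and the count filter by edgeR, by DESeq2 or by limma-voom; 1 had an unadjusted p under 0.05 in the higher direction (FAR1, a phytochrome-signalling factor) and 1 in the lower (COR27, a cold-induced clock repressor). COR27 passed by edgeR with no filter beyond 1 count (adjusted p = 0.011) or without CT1 (0.0298), and FAR1 passed with no filter beyond 1 count (0.0398) or without CT2 (0.0362). JMJ30, a histone demethylase with an evening peak, had 242, 271 and 265 CPM with dexamethasone and 96.5, 183 and 257 CPM in mock, so that CT1 was low as for the evening genes above.

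Of 10 clock-regulated outputs 5 were tested, and 2 fell (40%) while 1 rose (20%), where 8.02% of all genes tested were lower and 5.86% higher. The catalase gene CAT3, which has an evening peak, had 1015, 904 and 1072 CPM with dexamethasone and 1920, 1678 and 2109 CPM in mock (log2 fold change -0.93 ± 0.12, edgeR adjusted p = 3.03e-05). CAT2, the catalase with a morning peak, had 26.9, 28.9 and 25.2 CPM with dexamethasone and 83.3, 58.7 and 46.5 CPM in mock (-1.20 ± 0.19, adjusted p = 0.000345). Both catalases, of opposite phase, were lower, and both calls held without each library in turn. CO, the day-length regulator that CDF proteins repress, had 11, 11 and 16 counts with dexamethasone and 3, 6 and 5 counts in mock. It entered the test through the dexamethasone libraries, had a log2 fold change of 1.45 ± 0.43 (edgeR adjusted p = 0.027), lost its call without any library except CT3, with adjusted p up to 0.155, and shares 16.8% of its exon words with other genes.

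Of 12 light-input genes 3 fell (25%, against 8.02% of all genes tested), the photoreceptor genes CRY2, PHYA and UVR8. The photoreceptor genes PHYB, PHYC, PHYD, PHYE and CRY1 did not pass the test. CRY2, a blue-light receptor, had 79.5, 76.5 and 82.4 CPM in Dx4, Dx5 and Dx6, against 179, 184 and 182 CPM in CT1, CT2 and CT3, with spreads of a few CPM in each group. Its log2 fold change was -1.19 ± 0.12 (edgeR adjusted p = 2.05e-06), and it lay between -1.22 and -1.17 as each library was left out. PHYA, the far-red receptor, had 87.1, 68.5 and 67.2 CPM with dexamethasone and 115, 141 and 140 CPM in mock (-0.84 ± 0.14, adjusted p = 0.000458). UVR8, the ultraviolet-B receptor, had 176, 179 and 178 CPM with dexamethasone and 254, 253 and 242 CPM in mock (-0.49 ± 0.12, adjusted p = 0.00699, and up to 0.0574 without Dx6, the call being lost without any dexamethasone library). PHYB, the red-light receptor, overlapped, at 116, 113 and 128 CPM with dexamethasone and 106, 110 and 118 CPM in mock. CRY2 and UVR8 barely differed among the mock libraries, in which CCA1 varied 4.71-fold.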

How the data were processed

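The authors deposited 1 table of raw counts, with a column per library and a line per locus, counted with HTSeq per the name of the deposited table. The submitters' processing notes also list TopHat, Bowtie, RSEM and Cufflinks, without roles. Per the labels' protocols the library kit was stranded and selected mRNA; the sources used here name no genome build, annotation or strand setting. CT columns were taken as mock and Dx columns as dexamethasone, and no column was tied to 1 sample. The table's 3 blank lines hold no gene.

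Counts were tested in edgeR 4.0.16 (R 4.3.3; TMM; filterByExpr, minimum count 10; robust glmQLFit and glmQLFTest, two-sided) across all genes, with Benjamini-Hochberg adjustment over 15857 genes at 0.05. SE is the log2 fold change over the square root of F. CPM uses TMM-scaled library sizes. DESeq2 1.42.0 and limma-voom (3.58.1) were alternatives. Simulated counts with 200 changed genes gave calls for 17.9% of 1.5-fold, 76.1% of 2-fold and 93.9% of 4-fold changes among 15779 genes tested, and 12.6% of calls were of unchanged genes. Members and lists were chosen with earlier results of these data known, and each of the 31 is named; those past the threshold, with CCA1, LHY, TOC1 and GI, get every library's value. Gene names, exon lengths and sequences are RefSeq's for TAIR10.1, in which 28009 of 28775 loci, and all 31 members, had a gene. Shared exon sequence is the percentage of 50-base words that exons of other genes also hold, on either strand, so overlapping genes count. No 2 libraries agreed within sampling noise: the lowest chi-square per gene was 1.27.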

Additional observations from a re-analysis of the deposited data

How the results depend on the processing

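With 3 libraries a group, the 11 lower members became 18 with no filter beyond 1 count (CCA1, RVE8, TOC1, PRR5, RVE6, LNK2 and LNK4 were added). They became 8 with the Wald test of DESeq2, where LNK3, FKF1, ZTL and CDF2 were lost and LNK2 was added. Under the other scalings, filters and limma-voom 10 or 11 members were lower. Leaving out each library gave 3 to 16 lower members and 0 to 2 higher ones. Of all genes tested, 8.02% were lower with the main settings, 6.81% with no filter beyond 1 count and 5.14% with DESeq2. The share was 4.12 to 12.3% as each library was left out. Without CT3, the run with 2 higher members, 11.3% of all genes tested were higher, against 5.86% with the main settings. Of the related clock genes, 1 was higher and 5 were lower with the main settings. With no filter beyond 1 count 2 were higher and 7 lower, and with DESeq2 0 were higher and 5 lower. As each library was left out, 0 to 1 were higher and 4 to 7 lower. Over all genes, DESeq2 called 549 higher and 815 lower, against 929 and 1272, and leaving out each library gave 441 to 1816 higher and 668 to 1974 lower. The cause of these differences was not tested. The log2 fold change of AP2 lay between 3.98 and 4.23 throughout. No called member changed sign under any alternative run. Fold changes of PRR3 and LKP2, not called, changed sign without a library. No paired analysis was possible because the column numbers of the dexamethasone libraries match no sample title. Depth limits the dawn genes most: no dexamethasone library held over 4 reads, and no mock library over 15 reads, of CCA1, LHY, PRR9, RVE8 or CDF1.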
